A study of Mus musculus with 25 samples.

Results

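The question examined here is how much of the H3K9me3 called in regenerating mouse myofibers lies beside olfactory receptor (Olfr) genes, and whether it differs between wild-type and mutant fibers. The members were the peaks of the 12 H3K9me3 chromatin immunoprecipitation sequencing (ChIP-seq) lists that lay on chromosome 1 to 19 and that the authors had assigned to a gene whose symbol is Olfr followed by a number. There were 227 such peaks among 17669 autosomal H3K9me3 peaks, and they were assigned to 156 genes. A further 2 Olfr peaks on the X chromosome were not members.

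Olfr genes encode odorant receptors, G protein-coupled receptors that form the largest gene family of the mouse and sit in long tandem arrays on many chromosomes. Each olfactory sensory neuron transcribes a single receptor allele, and the remaining arrays are packed in those neurons into heterochromatin that carries H3K9me3. H3K9me3 is laid down by methyltransferases such as Setdb1 and is bound by HP1 proteins (Cbx1, Cbx3 and Cbx5), while the Kdm4 demethylases remove it.

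All libraries came from tibialis anterior myofibers dissected at 14 days post injury (dpi), and every animal carried the Pax7-Cre(ERT2) driver with a mito-Dendra2 reporter. Tamoxifen was given at 75 mg/kg for 5 days, and 50 µL of 1.2% BaCl2 was injected 2 days later. Wild-type fibers were compared with mfn2-/- fibers, which lack the mitochondrial fusion protein mitofusin 2, with vhl-/- fibers, which lack the ubiquitin ligase subunit that targets HIF1α for destruction, and with HIF1dPA fibers, in which HIF1α is made in a form resistant to that destruction. There were 3 libraries per genotype, described in the study's methods as biological replicates from mice; the ages of the animals were not given in the sources used here. The driver recombines in muscle stem cells, so the alleles are changed in nuclei that descend from those cells and not by this driver in other cells of the dissected tissue. The lists offer no check of the alleles themselves, since none held an H3K9me3 peak assigned to Mfn2, Vhl or Hif1a. None of the 15 skeletal muscle genes listed as markers, among them Acta1, Ckm and Ttn, had a peak of H3K9me3 or H3K27me3 in any list, and of 6 olfactory sensory neuron markers Gnal alone had peaks, of H3K9me3 in 1 vhl-/- library and of H3K27me3 in 10 lists. As background, 13.3% of the 20665 protein-coding autosomal genes in RefSeq had an H3K9me3 peak in at least 1 list and 19.3% an H3K27me3 peak.

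Whole lists held 887 to 3176 H3K9me3 peaks. Autosomal peaks made up 74.1% to 75.8% of the wild-type lists and 85.9% to 93.4% of the mutant lists, so shares are given of the autosomal peaks first. Sequencing depth is unknown, since the lists hold no read totals, and a lower number of peaks means fewer peaks called. Each peak has a score, which is 10 times the negative log10 of the caller's p-value, and no member lay below a score of 50.

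The start windows of 4 genes show the kind of sequence beside which these peaks were called. Olfr461 and Olfr814 had a peak in the most lists, Olfr212 had peaks in wild-type lists alone, and Olfr1249 was the gene whose window a peak overlapped. The windows, from RefSeq with build GRCm38.p6, reach from 250 bases before the start of the gene to 50 bases after it and are written 5′ to 3′ on the strand of the gene. They lie at chr6:40544928-40545227 (minus strand), chr10:129874706-129875005 (minus strand), chr6:116506266-116506565 (plus strand) and chr2:89630847-89631146 (minus strand). Capitals mark TAATTA, the core of many homeodomain binding sites such as those of Lhx2, which is its own reverse complement.
Olfr461: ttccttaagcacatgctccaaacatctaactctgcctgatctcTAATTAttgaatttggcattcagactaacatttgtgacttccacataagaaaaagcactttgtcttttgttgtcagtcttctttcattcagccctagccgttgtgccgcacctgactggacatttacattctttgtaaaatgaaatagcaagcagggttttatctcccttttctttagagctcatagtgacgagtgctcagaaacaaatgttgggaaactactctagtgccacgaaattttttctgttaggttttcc
Olfr814: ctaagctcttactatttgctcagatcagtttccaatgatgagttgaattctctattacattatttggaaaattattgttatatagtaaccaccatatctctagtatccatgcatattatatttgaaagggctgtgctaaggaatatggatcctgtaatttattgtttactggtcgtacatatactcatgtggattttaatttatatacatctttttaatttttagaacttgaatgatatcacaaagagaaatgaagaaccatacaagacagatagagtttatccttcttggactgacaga
Olfr212: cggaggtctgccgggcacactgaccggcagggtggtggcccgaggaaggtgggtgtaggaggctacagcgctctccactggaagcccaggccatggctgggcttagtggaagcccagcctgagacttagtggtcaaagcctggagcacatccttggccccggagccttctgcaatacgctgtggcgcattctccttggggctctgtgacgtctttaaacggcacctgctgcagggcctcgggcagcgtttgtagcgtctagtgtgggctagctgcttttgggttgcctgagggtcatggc
Olfr1249: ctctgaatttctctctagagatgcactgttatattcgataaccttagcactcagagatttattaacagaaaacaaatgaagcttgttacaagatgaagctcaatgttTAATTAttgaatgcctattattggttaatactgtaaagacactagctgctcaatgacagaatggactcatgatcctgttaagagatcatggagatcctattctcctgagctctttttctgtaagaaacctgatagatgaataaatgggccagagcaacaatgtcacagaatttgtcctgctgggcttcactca

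The Olfr461, Olfr814 and Olfr1249 windows are rich in A and T, with a GC content of 39%, 30.3% and 37%, while the Olfr212 window has 62.3% GC and 13 CpG dinucleotides. At the RefSeq start, 72.4% of Olfr windows read ATG, those of Olfr461, Olfr814 and Olfr1249 among them, compared with 5.83% of all windows, so most of these models begin at the coding sequence and their windows are not shown to hold the transcription start. The table held 948 Olfr windows with a median GC content of 35%, and the median over all 32851 windows was 52.7%. TAATTA was found in 18.6% of the Olfr windows and in 5.29% of all windows. Among 116 windows of Olfr genes with an H3K9me3 peak 16.4% held it, and among 832 windows of those without a peak 18.9% did. CCCNNGGG, the core of sites bound by Ebf factors and also its own reverse complement, was in 3.06% of Olfr windows and 13.7% of all windows. No letters of the 2 motifs overlap, and a match only describes the window.

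H3K9me3 peaks near Olfr genes were few in every list and were fewest in mfn2-/- and vhl-/- fibers. The 3 wild-type lists held 30, 27 and 24 of them, and the mfn2-/- lists held 9, 9 and 18. The vhl-/- lists held 9, 16 and 18, and the HIF1dPA lists 28, 27 and 12. All 6 mfn2-/- and vhl-/- lists were below all 3 wild-type lists, while HIF1dPA replicates 1 and 2 were within the wild-type range and replicate 3 was below it. Autosomal H3K9me3 peaks of any gene numbered 2176 to 2407 in wild-type lists. They numbered 780 to 1306 in mfn2-/-, 1039 to 1315 in vhl-/- and 1141 to 1588 in HIF1dPA lists, so all 9 mutant lists were lower there too. The wild-type mean was 27 ± 3 Olfr peaks (SD, n = 3), and the means of mfn2-/-, vhl-/- and HIF1dPA lists were 12 ± 5.20, 14.3 ± 4.73 and 22.3 ± 8.96 (SD, n = 3 per genotype). The geometric mean over the 9 mutant lists was 0.551 of that over the wild-type lists (exact permutation test over 220 arrangements, two-sided, p = 0.0636, adjusted p = 0.255 over the 16 planned tests), and the 4 genotypes together gave an exact permutation p of 0.0829 (adjusted p = 0.265). Neither passed 0.05. The 780 strongest autosomal peaks of each list held 4, 7 and 10 Olfr peaks in wild-type lists. They held 5, 9 and 10 in mfn2-/-, 6, 9 and 11 in vhl-/- and 11, 10 and 8 in HIF1dPA lists. The mutant number was then 1.3 times that of wild-type (exact permutation p = 0.25). With lists of equal length this compares shares and not the number of peaks called. A comparison of 3 with 3 lists cannot go below p = 0.1, which mfn2-/- and vhl-/- each reached against wild-type, and HIF1dPA gave an exact permutation p of 0.7.

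The share of Olfr peaks in the list did not follow the number. In wild-type lists 1.38%, 1.12% and 1.07% of autosomal peaks were near an Olfr gene, and in mfn2-/- lists 0.888%, 1.15% and 1.38% were. The vhl-/- lists had 0.866%, 1.43% and 1.37%, and the HIF1dPA lists 1.82%, 1.70% and 1.05%. The genotypes overlapped throughout. The mean share over mutant lists was 0.104 percentage points above the wild-type mean (exact permutation p = 0.618, adjusted p = 0.761), and the test over 4 genotypes gave p = 0.439 by exact permutation (adjusted p = 0.6). With 9 to 30 members in a list the counts themselves are imprecise: the 95% Clopper-Pearson interval was 0.397% to 1.64% for the lowest list and 1.21% to 2.61% for the highest, which covers counting error alone. As a share of the whole list, sex chromosomes included, the means were 0.895%, 0.993%, 1.13% and 1.42% in wild-type, mfn2-/-, vhl-/- and HIF1dPA lists, and the mutant mean was then 0.285 points higher (exact permutation p = 0.191).

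**Figure D1:**
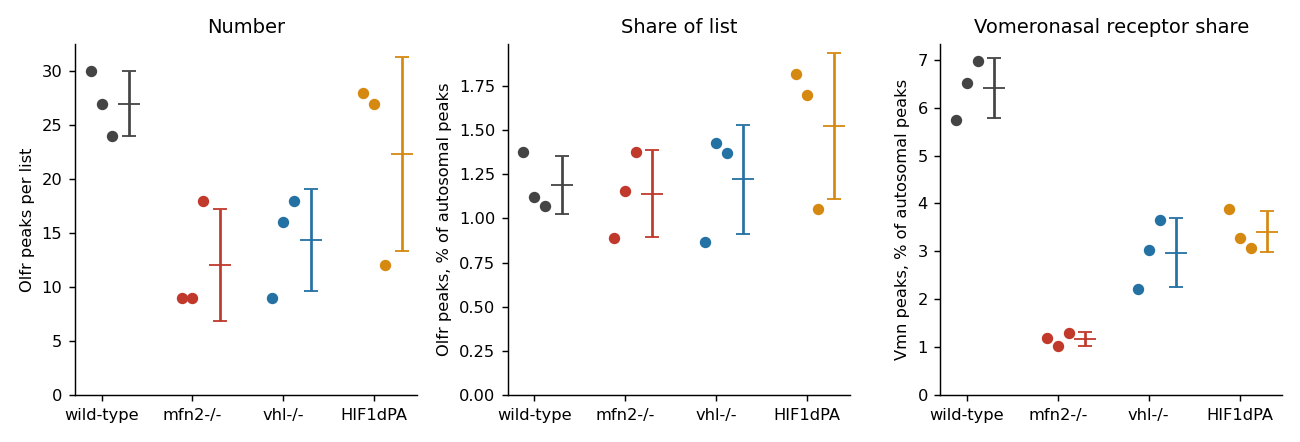
Each point is 1 library, and the bar beside each group is the mean with its SD over 3 libraries; the panels give the number of Olfr peaks per list, their share of the autosomal peaks in percent, and the same share for vomeronasal receptor (Vmn) peaks. Olfr number is lower in mfn2-/- and vhl-/- lists, Olfr share overlaps between all genotypes, and every mutant list lies below 5.74%, the lowest wild-type Vmn share.

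The Olfr share differed in this from that of the vomeronasal receptor genes (Vmn1r and Vmn2r), pheromone receptor families that are also arranged in arrays. Vmn genes had 727 autosomal H3K9me3 peaks in the 12 lists, and the trace amine receptor (Taar) genes had 0. For each Olfr peak the wild-type lists held 4.17, 5.81 and 6.50 Vmn peaks, the mfn2-/- lists 1.33, 0.889 and 0.944, the vhl-/- lists 2.56, 2.13 and 2.67, and the HIF1dPA lists 2.14, 1.93 and 2.92. All 9 mutant lists lay below all 3 wild-type lists, and the ratio was 3.01-fold higher in wild-type than in mutant lists (exact permutation p = 0.00455, the smallest that 220 arrangements can give, in a test chosen after the data were seen). The Olfr share of autosomal peaks, in contrast, did not fall over the mutant lists together: their mean was 0.104 percentage points above the wild-type mean (exact permutation p = 0.618).

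Within each list, Olfr peaks were set against the other autosomal peaks of the same library, so that libraries of different depth were not mixed. They were narrower and scored lower, and a larger share of them was distal intergenic. The median width of Olfr peaks was 561.5 to 626 bp, and that of the other peaks 580 to 648 bp. The Olfr median was lower in all 12 lists, with differences of -64.5 to -7 bp and a mean of -27.3 bp (two-sided exact sign-flip permutation test over libraries, p = 0.000488, the smallest it can give, adjusted p = 0.00391). The mean difference was -141 bp with the 780 strongest peaks of each list, a cut that left 4 to 11 Olfr peaks per list. It was -15.3 bp with peaks joined within 1000 bp. Over all members the width ranged from 385 to 1775 bp, and 8 peaks were wider than 1 kb.

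Distal intergenic peaks made up 66.7% to 100% of the Olfr peaks of a list and 53.4% to 64.6% of the others. The Olfr share was higher in all 12 lists, by a mean of 22.8 percentage points (exact permutation p = 0.000488, adjusted p = 0.00391). Of the 156 assigned genes, 138 span under 2 kb, so there was little exon or intron sequence in which a member could lie, and the choice of members largely fixed this direction. Among promoter and distal intergenic peaks alone, a comparison added after the data were seen, the distal share was 66.7% to 100% for Olfr and 78.5% to 84.3% for the other peaks, with a mean difference of 2.54 points that was positive in 7 of 12 lists (exact permutation p = 0.346). In all, 192 members were distal intergenic, 34 were promoter peaks by the authors' classes, which reach 3 kb, and 1 was in an intron. Promoter peaks were most often off the start itself: 6 lay within 1 kb, 14 at 1 to 2 kb and 14 at 2 to 3 kb. Only 8 members overlapped the RefSeq span of any Olfr gene, and the median distance to the assigned gene was 6938 bp, with 2 members farther than 100 kb.

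Scores were low for most members. The median percentile of Olfr peaks within their own list was 25.7 to 51.7, and it was below that of the other peaks in 10 of 12 lists, with a mean difference of -8.89 percentile points (exact permutation p = 0.00342, adjusted p = 0.0182). Wild-type replicate 3 and mfn2-/- replicate 2 were the lists in which it was higher. Pooled over the 12 lists, 67.8% of the members scored under 60, compared with 48.1% of the other autosomal peaks. At least 100 was scored by 0.881% of the members, compared with 11.1% of the others. The strongest Olfr peak of a list ranked between 110 and 375 among its autosomal peaks, and 2 members reached the top 10% of their list, at Olfr461 in wild-type replicate 2 and at Olfr3 in mfn2-/- replicate 3.

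**Figure D2:**
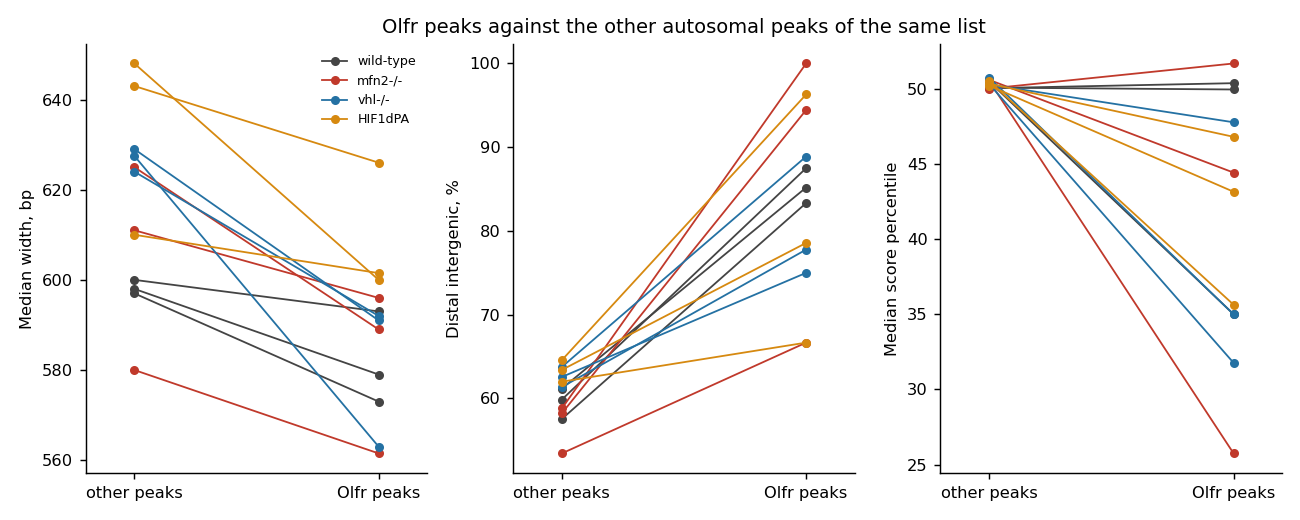
Each line joins the other autosomal peaks and the Olfr peaks of 1 library, colored by genotype, for the median width in bp, the percent of peaks that are distal intergenic, and the median score percentile within the list. Width falls and the intergenic share rises in all 12 libraries, and the percentile falls in 10; the vertical axes do not start at 0.

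Neither width nor the distal intergenic share passed the test over 4 genotypes. Median width averaged 582 ± 10.3 bp in wild-type lists (SD, n = 3), compared with 582 ± 18.2, 582 ± 16.5 and 609 ± 14.6 bp for mfn2-/-, vhl-/- and HIF1dPA, and the 4 genotypes gave p = 0.138 by exact permutation (adjusted p = 0.368). All 3 HIF1dPA lists, at 600 to 626 bp, lay above the other 9, at 561.5 to 596 bp, and with peaks joined within 1000 bp the 4 genotypes gave an exact permutation p of 0.0392. The other autosomal peaks had median widths of 610 to 648 bp in HIF1dPA lists and 580 to 629 bp in the other 9. Set against those peaks, Olfr peaks differed by a mean of -24.5 bp in HIF1dPA lists. The mean difference was -16.7, -23.2 and -44.8 bp in wild-type, mfn2-/- and vhl-/- lists. The distal intergenic share averaged 85.3% ± 2.09 in wild-type lists, compared with 87.0% ± 17.9, 80.6% ± 7.35 and 80.5% ± 14.9 for mfn2-/-, vhl-/- and HIF1dPA (exact permutation p = 0.861, adjusted p = 0.861). The mutant mean was 9.44 bp above the wild-type mean for width (exact permutation p = 0.45) and differed from it by -2.64 points for the intergenic share (exact permutation p = 0.736).

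Olfr peaks can lie only on chromosomes that hold Olfr genes, and their numbers differed widely between those. Over the 19 autosomes the number of peaks rose with the number of Olfr genes (Pearson correlation 0.903, Spearman 0.908). Chromosome 2, with 377 of the 1420 autosomal Olfr genes in RefSeq, had 47 peaks, chromosome 9 had 35 for 179 genes and chromosome 7 had 29 for 294 genes. These 3 chromosomes held 48.9% of the peaks and 59.9% of the genes. Per 100 genes, chromosome 7 had 9.86 peaks and chromosome 2 had 12.5, while chromosome 3 had 80 (4 peaks, all at Olfr266, for 5 genes), chromosome 6 had 41.7, chromosome 8 had 40 (2 peaks for 5 genes), chromosome 10 had 32.5 and chromosome 17 had 29.7. Single genes carried some of these values, since 11 of the 15 peaks on chromosome 6 were at Olfr461 and 19 of the 26 on chromosome 10 at Olfr814 and Olfr57. Chromosomes 4, 5, 12 and 13 had no peak assigned to an Olfr gene although they hold 52 Olfr genes in all, and chromosome 18 has no Olfr gene. Peaks assigned to other genes did lie in Olfr arrays there, 3 in an array of 13 genes on chromosome 13 and 1 in an array of 8 genes on chromosome 4.

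The lists held 81 wild-type, 36 mfn2-/-, 43 vhl-/- and 67 HIF1dPA Olfr peaks in all, among 6822, 3100, 3476 and 4271 autosomal peaks. By genotype, chromosome 2 held 13 wild-type, 9 mfn2-/-, 8 vhl-/- and 17 HIF1dPA peaks, and chromosome 7 held 12, 3, 4 and 10. Chromosome 6 held 8 wild-type, 4 vhl-/- and 3 HIF1dPA peaks and 0 of the 36 mfn2-/- peaks of the 3 lists together. On chromosome 19 the mfn2-/- lists held 6 peaks and the wild-type lists 4. The chromosome 7 share of Olfr peaks averaged 14.5% ± 5.43, 7.41% ± 6.42, 7.87% ± 6.85 and 15.3% ± 7.63 in wild-type, mfn2-/-, vhl-/- and HIF1dPA lists (SD, n = 3 each; exact permutation p = 0.352 over 4 genotypes). The chromosome 2 share averaged 16.0% ± 1.07, 24.1% ± 11.6, 18.8% ± 11.2 and 23.6% ± 10.5 (exact permutation p = 0.694), and mutant and wild-type means differed by -4.30 points on chromosome 7 (exact permutation p = 0.391) and 6.10 points on chromosome 2 (exact permutation p = 0.336). None passed 0.05, and all 4 adjusted p-values were 0.6 or 0.785.

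**Figure D3:**
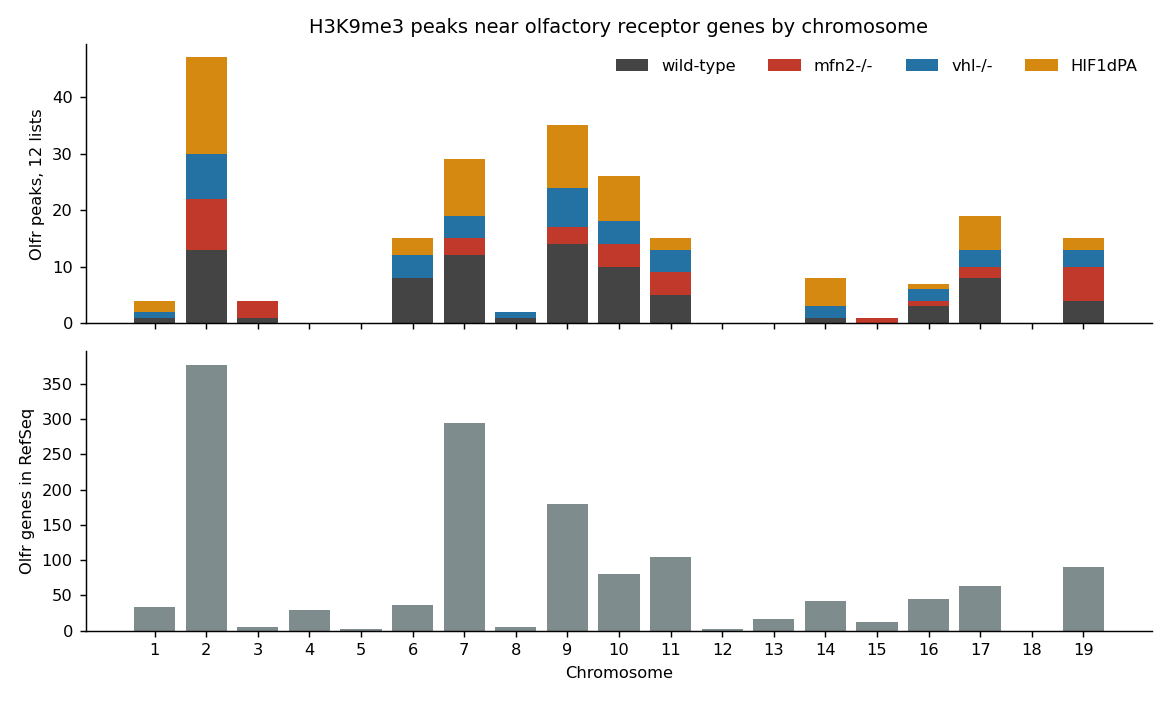
The upper bars stack the Olfr peaks of the 12 lists by genotype for each chromosome, and the lower bars count the autosomal Olfr genes in RefSeq. Chromosome 2 leads both, with 47 peaks and 377 genes, and chromosomes 3, 6 and 10 have 80, 41.7 and 32.5 peaks per 100 genes.

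Peaks within 500 kb of each other formed 39 groups, of which 15 were single peaks and 24 were clusters of 2 or more. The fullest ran from Olfr829 to Olfr872 on chromosome 9, over 1.42 Mb with 46 Olfr genes, and held 13 wild-type, 2 mfn2-/-, 2 vhl-/- and 9 HIF1dPA peaks. The Olfr756-ps1 to Olfr136 cluster on chromosome 17 held 8, 2, 3 and 6 peaks in the same order, and the Olfr152 to Olfr142 cluster on chromosome 2, the longest with 133 Olfr genes, held 4, 3, 3 and 9. The Olfr782 to Olfr827 cluster on chromosome 10 held 6, 3, 2 and 7, and the Olfr472 to Olfr513 cluster on chromosome 7 held 8, 2, 3 and 3. In the Olfr1445 to Olfr1494 cluster on chromosome 19 there were 4 wild-type, 6 mfn2-/-, 3 vhl-/- and 1 HIF1dPA peaks. The next 4 held 12, 11, 11 and 9 peaks, on chromosomes 2, 2, 6 and 11. No cluster had peaks in all 12 lists, and the chromosome 2 cluster, with 10 lists, came nearest. Over all clusters and single peaks the wild-type, mfn2-/-, vhl-/- and HIF1dPA lists held 81, 36, 43 and 67 Olfr peaks. No cluster was tested against these unequal totals.

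Peak density in Olfr arrays as wholes lay above that elsewhere on the autosomes in some lists and below it in others. RefSeq Olfr genes formed 45 arrays of 2 or more genes with gaps of at most 500 kb, which hold 1397 of the 1420 genes and span 30.5 Mb, or 1.25% of the autosomal span covered by genes. All peaks with their midpoint in an array, whichever gene they were assigned to, numbered 0.327 to 1.11 per Mb, against 0.319 to 0.985 per Mb elsewhere in the same lists. The ratio was 0.767 to 1.78, with a geometric mean of 1.14 (sign-flip exact permutation p = 0.0674, a test added after the data were seen), and with the 780 strongest peaks of each list it was 0.954. Over all peaks the ratio was below 1 in wild-type replicate 3, vhl-/- replicate 1 and HIF1dPA replicate 3. It was highest in HIF1dPA replicates 1 and 2, at 1.78 and 1.52. Of the members, 200 lay in arrays and 27 outside them. Where the strand was known, for 168 members, 86 lay upstream of the gene start, 81 downstream and 1 over it.

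Few of the peaks recurred between libraries. Merging overlapping Olfr peaks of the 12 lists gave 198 regions, of which 186, or 93.9%, came from a single list; among all 11350 autosomal regions 84.3% did. In each of the 12 lists the share of Olfr peaks that overlapped a peak of another list, 11.1% to 33.3%, was below that of the other autosomal peaks, 38.2% to 58.0%, a description with no test because the lists enter each other's values. The mean Jaccard index, in which shared sequence is divided by the sequence held by either list, was 0.0303 within genotypes and 0.0242 between them (one-sided exact permutation p = 0.199, adjusted p = 0.455). The 3 vhl-/- lists shared no Olfr base pair.

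At the level of genes, 125 of the 156 had a peak in 1 list, 19 in 2 lists and 12 in 3 or more. RefSeq holds all 156 symbols, and they are 156 of its 1420 autosomal Olfr genes. Pseudogenes are 22.2% of the autosomal Olfr genes and took 10.1% of the peaks, and protein-coding genes took 204 of the 227. A single gene, Olfr814, had peaks in all 4 genotypes, while 42 genes had them in wild-type lists alone and 20, 27 and 41 in the lists of mfn2-/-, vhl-/- or HIF1dPA alone. Since 125 genes had a peak in a single list, most of these counts follow from that: 83.3% of Olfr genes with a peak had it in 1 genotype and 80.1% in 1 list, compared with 59.3% and 51.8% of the 4368 other genes.

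Olfr461 (ENSMUSG00000068259; mm10 chromosome 6, 40544036 to 40544977), an odorant receptor gene with 1 other Olfr gene within 100 kb, had a peak in 9 lists. Its start window is shown above, and its 11 peaks all lay upstream of it; distances here are from the start of the RefSeq gene. Nearest to the gene was a region 1.68 to 2.91 kb before the start (chromosome 6, 40546661 to 40547887), which had peaks in the 3 wild-type lists with scores of 53.0, 107.7 and 103.4 and in none of the 9 mutant lists. Farther out, at 6.82 to 8.80 kb before the start (chromosome 6, 40551797 to 40553775), wild-type replicates 2 and 3 had scores of 61.6 and 96.3, vhl-/- replicate 1 had 50.7 and the HIF1dPA lists had 61.7, 58.3 and 58.8. The peaks of vhl-/- replicates 2 and 3, with scores of 55.5 and 58.1, lay between these regions. The mfn2-/- lists had no peak at Olfr461. The 1775 bp peak of wild-type replicate 3 in the outer region was the widest member.

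The inner Olfr461 region was the single Olfr region that separated wild-type from a mutant, and it did so for each of the mutants. It was 1 of 105 Olfr regions (0.952%) in the comparison with mfn2-/-, 1 of 112 (0.893%) with vhl-/- and 1 of 131 (0.763%) with HIF1dPA lists. Over all autosomal regions, 2.01%, 1.13% and 1.10% were in all 3 wild-type lists and in no list of the same mutant. In the opposite direction no Olfr region was in all 3 lists of a mutant and in no wild-type list, and over all autosomal regions 0.232%, 0.667% and 0.762% were, for mfn2-/-, vhl-/- and HIF1dPA in turn. These counts come from presence in lists and were given no test; the Olfr shares lay under the background, and with the 780 strongest peaks of each list the region no longer separated any pair.

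Olfr814 (ENSMUSG00000059134; chromosome 10, 129873823 to 129874755) lies among 12 other Olfr genes within 100 kb and had 12 peaks in 8 lists, in 2 regions before its start. The inner region, 2.78 to 3.51 kb upstream (129877533 to 129878268), had scores of 93.6 and 67.9 in wild-type replicates 1 and 3, 50.8 in mfn2-/- replicate 2, 68.2 in vhl-/- replicate 1, and 91.4 and 56.0 in HIF1dPA replicates 1 and 3. The outer region, 4.08 to 4.90 kb upstream (129878830 to 129879655), had scores of 91.4 in wild-type replicate 3, 81.1 in mfn2-/- replicate 2, 58.8 in vhl-/- replicate 2, and 57.6, 61.3 and 56.2 in the HIF1dPA lists. High and low scores occurred in the same genotype, and 1 of the 3 mfn2-/- lists had the gene. It was the highest-scoring Olfr gene in wild-type replicate 1, mfn2-/- replicate 2, vhl-/- replicate 1 and HIF1dPA replicate 1.

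Olfr212 (ENSMUSG00000053251; chromosome 6, 116506516 to 116517965) had a peak in each wild-type list and in no mutant list. The scores were 58.0, 56.9 and 55.7, and the peaks of replicates 1 and 2 overlapped at 1.35 to 2.23 kb before the start while that of replicate 3 lay 4.09 to 4.65 kb before it. All 3 were weak, at percentile 30.8 of the list or lower. By overlap Olfr212 held no region that separated genotypes, and the share of all genes with this pattern is not given here. Wild-type lists also held more autosomal peaks, 6822 in all compared with 3100, 3476 and 4271 for mfn2-/-, vhl-/- and HIF1dPA. Olfr57 on chromosome 10 had 4 peaks in wild-type lists with scores of 55.7, 63.6, 62.9 and 72.5, had 50.1 and 62.4 in vhl-/- replicates 2 and 3, and had 74.6 in HIF1dPA replicate 3, with no mfn2-/- peak.

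**Figure D4:**
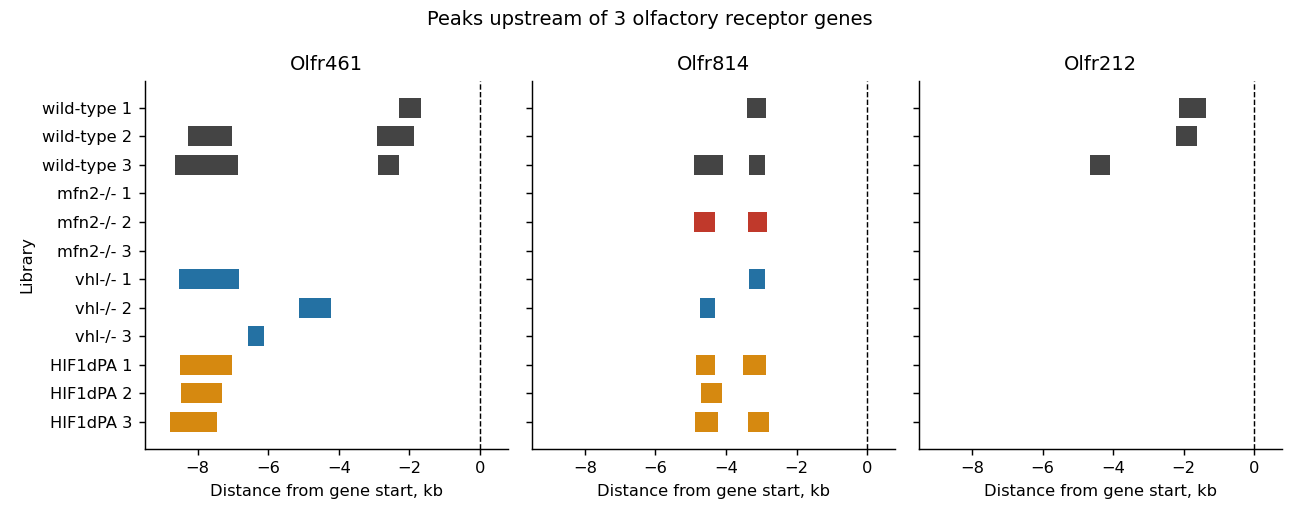
Each row is 1 library and each bar 1 H3K9me3 peak at its distance in kb from the gene start (dashed line), for Olfr461, Olfr814 and Olfr212. The peaks at 1.68 to 2.91 kb before Olfr461 occur in the 3 wild-type rows alone, and those before Olfr814 recur in the same 2 places across genotypes. Those before Olfr212 occur in wild-type rows alone, at 2 places that do not overlap.

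The remaining genes among the 15 with the most lists had between 2 and 5 peaks each. Olfr136 had peaks in 2 wild-type and 2 HIF1dPA lists, at 5 places that did not overlap, with scores of 50.3 to 75.4. The pseudogene Olfr1374-ps1 had peaks in 2 mfn2-/- lists, 1 vhl-/- and 1 wild-type list, with a highest score of 70.1 in mfn2-/- replicate 1. Olfr266, with no other Olfr gene within 100 kb, had peaks in 2 mfn2-/- lists and 1 wild-type list, with scores of 57.0 to 61.7. Olfr117 and Olfr1463 each had peaks in 2 wild-type lists and 1 mfn2-/- list, and Olfr871 in 2 wild-type lists and 1 HIF1dPA list. Olfr359-ps1 had 1 peak each in wild-type, mfn2-/- and HIF1dPA lists, with scores of 61.3 to 77.3, and Olfr478 had 1 wild-type peak, at a score of 84.5, and 2 HIF1dPA peaks. Olfr843, Olfr1174 and Olfr1281 each had peaks in 2 lists and no wild-type list; they were taken from 19 genes tied at 2 lists, by number of peaks and then symbol, and 11 of those 19 had a wild-type peak. Among the 12 genes with peaks in 3 or more lists, the median distance to the next Olfr gene was 20737 bp. It was 12685.5 bp among the 144 genes with peaks in 1 or 2 lists and 10772 bp over all autosomal Olfr genes, and the difference was not tested.

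**Figure D5:**
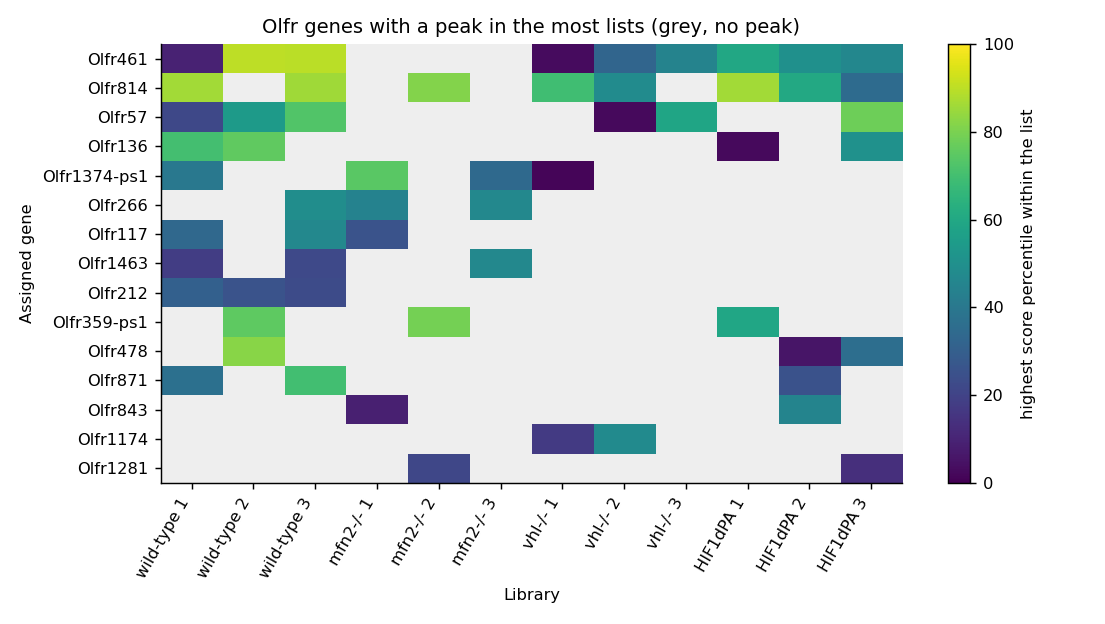
Rows are the 15 Olfr genes with a peak in the most lists, columns the 12 libraries, and color the highest percentile of the gene's peaks by score within that list, with grey for no peak. Olfr461 is filled in 9 columns and in no mfn2-/- column, Olfr814 in 8 columns, and every other gene in 6 or fewer.

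The strongest Olfr peak of a list was at Olfr814 in 4 lists and at Olfr461 in 2, and each remaining list had a gene of its own. It was at Olfr461 in wild-type replicates 2 and 3, at Olfr1374-ps1 and Olfr3 in mfn2-/- replicates 1 and 3, at Olfr138 and Olfr370 in vhl-/- replicates 2 and 3, and at Olfr1412 and Olfr57 in HIF1dPA replicates 2 and 3. The Olfr3 peak, in a distal intergenic stretch of chromosome 2 (36820792 to 36821440), scored 95.9 and was in no other list. By percentile within its own list the highest member stood at 86.1 to 90.1 in wild-type, 74.6 to 91.7 in mfn2-/-, 69.5 to 71.6 in vhl-/- and 77.7 to 86.3 in HIF1dPA lists, given without a test. A single peak lay over the start window of an Olfr gene in the sequence table, that of HIF1dPA replicate 3 at Olfr1249 (chromosome 2, 89630518 to 89631026), with a score of 50.0 and thus at the lower limit of the list.

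H3K27me3, the Polycomb mark measured in the same genotypes, took a smaller share of its lists at Olfr genes. Its 12 lists held 110 Olfr peaks among 30979 autosomal peaks, from 1 to 22 a list, and the share was 0.385% ± 0.200 (SD, n = 12) compared with 1.27% ± 0.297 for H3K9me3 (SD, n = 12; permutation test with 100000 resamples, p = 2e-05, the smallest they can give). This test was not among the 16 planned and did not pair lists by genotype and replicate number. Paired in that way, the H3K27me3 share was the lower one in all 12 pairs. The number was not lower in every library, since the vhl-/- lists held 22, 14 and 6 H3K27me3 peaks near Olfr genes beside 9, 16 and 18 of H3K9me3, and the HIF1dPA lists held 3, 1 and 4 among 474 to 496 autosomal H3K27me3 peaks. None of the 227 members overlapped an H3K27me3 peak of any list, and of the 17442 other autosomal H3K9me3 peaks 368, or 2.11%, did.

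H3K9me3 peaks were assigned to 2 of 20 genes of the olfactory pathway and 2 of 14 of the H3K9 methylation machinery, beside 13.3% of all protein-coding autosomal genes. Of the 20 genes for olfactory signal transduction and receptor choice, Gnal, the olfactory G protein subunit, and Ano2, the chloride channel of olfactory cilia, had peaks, in 1 and 2 lists. H3K27me3 peaks occurred at 9 of the 20, beside 19.3% of all protein-coding autosomal genes, among them Gnal and the receptor choice factors Lhx2, Emx2 and Ebf2, each in 10 lists. Of the 14, Atf7ip, the partner of Setdb1, had an intron peak in 6 lists from all 4 genotypes, with scores of 52.7 to 85.8, and Setdb1 had a distal peak in mfn2-/- replicate 1 with a score of 73.2. The Atf7ip peaks of wild-type replicates 1 and 3 (136567642 to 136568326) overlapped no mutant peak. Those of vhl-/- replicate 1 and HIF1dPA replicates 1 and 2 shared another place (136568512 to 136569192). The mfn2-/- replicate 1 peak lay apart from both (136526364 to 136527005).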

How the data were processed

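ChIP-seq peak lists of myofibers at 14 dpi were used: 12 for H3K9me3 and 12 for H3K27me3, with 3 libraries per genotype; 1 input library was not used. Per the labels, the authors aligned reads to mm10 with BWA 0.7.5 and used MACS and deepTools 3.5.0; the version of MACS, duplicate handling and the tool that assigned genes are not given in the sources used here. The deposited score, 10 times the negative log10 of the MACS p-value, is per library and grows with depth, so it is not comparable between libraries and was used to describe, rank or filter within a list. Deposited peak bounds, gene symbols and feature classes were used unchanged, and RefSeq (GRCm38.p6, the assembly of mm10) gave gene spans, matched by symbol.

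The members and lists were chosen with earlier results of these data known. Genes named are the 15 with peaks in the most lists (ties by number of peaks, then symbol), regions that separate genotypes, the strongest Olfr peak of each list, and listed pathway and marker genes with a peak. Peaks overlapping by at least 1 bp were merged into regions. Genotypes were compared by exact permutation of the libraries (numbers as log2), Olfr peaks with the other peaks of their list by exact sign flips, and 16 p-values were adjusted by Benjamini-Hochberg. Tests were checked on simulated data. The replicate numbers in the titles are not stated to share an animal or batch, so no block was used in the main tests. Python 3.11.15, numpy 2.4.6, pandas 2.3.3 and scipy were used. Alternatives were a score of at least 100, the 780 strongest autosomal peaks of each list, joining peaks within 1000 bp, leaving out pseudogene symbols, a replicate block, the whole list as denominator and leaving out each library; others were added after the data were seen.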

Additional observations from a re-analysis of the deposited data

Results flagged for a closer look

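The median width of Olfr peaks was higher in all 3 HIF1dPA lists (600 to 626 bp) than in all 6 lists of the other mutants (561.5 to 596 bp). Their means differed by 27.1 bp, and an exact permutation test of HIF1dPA against the other mutants over 84 arrangements gave p = 0.0476 (two-sided, smallest possible 0.0119). The wild-type lists had 573 to 593 bp, and the HIF1dPA mean was 27.5 bp above theirs (exact permutation p = 0.1, the smallest that 3 against 3 lists can give). The comparison with the other mutants was 1 of 18 such comparisons, and after Benjamini-Hochberg adjustment the p was 0.714, so it did not pass. The other autosomal peaks of the HIF1dPA lists had median widths of 610 to 648 bp, and those of the other mutants 580 to 629 bp. The part of the list-wide width in the result was not tested.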

How the results depend on the processing

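The lists hold 9 to 30 members, and depth is unknown, which limits every comparison between genotypes. The differences of Olfr peaks from the other peaks of their list in width (-141 to -15.3 bp) and score percentile (-27.2 to -7.45) kept their direction and passed 0.05 under every alternative that gave a value. The distal intergenic share did so at 21.1 to 24.4 points, except among promoter and distal intergenic peaks alone, an alternative added after the data were seen, where it was 2.54 points (exact permutation p = 0.346). The fall in Vmn relative to Olfr peaks did too, at 0.278 to 0.365 of the wild-type ratio.

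Mutant and wild-type Olfr numbers depended on how lists were cut. The 780 strongest peaks of each list held 4 to 10 Olfr peaks in wild-type lists and 5 to 11 in mutant lists. With the 780 strongest peaks of each list the mutant number was 1.3 times that of wild-type (exact permutation p = 0.25), width differed by -4.33 bp, the distal intergenic share by 14.8 points and the chromosome 2 share by -4.23 points, each opposite in sign to the value over all peaks, and the array density ratio was 0.954. A score of at least 100 left 2 Olfr peaks, both wild-type, with ratio 0.630 (1 added to each count) and a share difference of -0.249 points (exact permutation p = 0.0455 for both). Since scores grow with depth, a fixed score is not an equal cut between libraries. Widths, feature classes and similarity could not be computed. Under these 2 cuts the Olfr461 region that separated wild-type from each mutant was no longer called, leaving 0. With peaks joined within 1000 bp the number ratio was 0.538 (exact permutation p = 0.0455), and the 4 genotypes differed in width with an exact permutation p of 0.0392. Without pseudogene symbols the intergenic difference was 0.455 points. Without Olfr461, Olfr814 and Olfr57, an alternative chosen after the data were seen, similarity within minus between genotypes was 0.00566 (exact permutation p = 0.02).

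Leaving out 1 library moved the number ratio from 0.509 to 0.586, past 0.05 without HIF1dPA replicate 1 or 2, and its 4-genotype exact permutation p from 0.0345 (without HIF1dPA replicate 3) to 0.178, with 0.0429 without mfn2-/- replicate 3. The similarity difference ran from -0.000128 without HIF1dPA replicate 1 to 0.0181 without vhl-/- replicate 1 (exact permutation p = 0.0231). The array ratio ran from 1.09 to 1.18, past 0.05 without vhl-/- replicate 1 or HIF1dPA replicate 3. The cause of these changes was not tested.

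With the replicate number as a block, no call changed: the number ratio stayed 0.551 (exact permutation p = 0.0625). A pairing by number was not seen: 3 of 18 same-numbered pairs correlated above 0.1 in their peaks per cluster and 0 of 12 libraries matched its own number best. This check could not exclude pairing, since lists held 9 to 30 members and 93.9% of Olfr regions came from a single list. The planned distance limit was not run because the lists hold no distance; with RefSeq spans and 100 kb, chosen after the data were seen, no call changed.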
